A study of Mus musculus with 16 samples.

Results

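The striatum of control-genotype mice that received the Foxp2 virus was compared with that of control-genotype mice that received the control virus. These are 8 of the 16 libraries of the study, 4 mice labelled Con + Foxp2 and 4 labelled Con + Con, and they were chosen by those labels alone. The deposited count tables list 24421 genes, of which 13563 had enough reads to be tested. The other 8 libraries come from BACHD mice, a Huntington disease model in which a bacterial artificial chromosome supplies mutant human huntingtin.

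All mice were 13 months old at harvest and 4 mice made up each group. The group Con+Con has the control genotype and the control virus, Con+Foxp2 the control genotype and the Foxp2 virus, BACHD+Con the BACHD genotype and the control virus, and BACHD+Foxp2 the BACHD genotype and the Foxp2 virus. All groups thus share a virus injection, and no uninjected mice are among the samples. The type of virus, its promoter, the cells it entered, the species of the delivered sequence and the time from injection to harvest are not stated in the labels or design text. The same holds for the strain and sex of the mice.

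FOXP2 is a forkhead transcription factor: it binds DNA through a winged-helix domain, forms dimers with its relatives FOXP1 and FOXP4, and can repress or activate its targets. In the striatum it is made mainly by projection neurons, the GABAergic cells that form most of this nucleus and send its output through the direct and indirect pathways. Mutations of the human gene impair speech, and in mice the protein has been linked to synapses and to the excitability of these neurons. Other striatal cells, among them cholinergic and GABAergic interneurons, astrocytes, microglia, oligodendrocytes and vessel cells, contribute RNA to a bulk sample as well.

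The 8 control-genotype libraries held 2728388 (Con+Con mouse 4) to 3669748 (Con+Foxp2 mouse 4) reads assigned to genes, and 3 reads, the floor used for genes at 0, equalled 0.819 to 1.12 CPM. CPM stands for reads scaled to a common library total. Markers of projection neurons were abundant in all 8 libraries, as in striatum. Their summed level over 32 genes, none of them at 0 in all 8 mice, was 11807, 19044, 11150 and 17900 CPM in Con+Con mice 1 to 4 and 12395, 11917, 10710 and 11316 CPM in Con+Foxp2 mice 1 to 4. Con+Con mice 2 and 4 stood above the other 6 mice, which lay close together. Of the 32 genes, 30 were lower with the Foxp2 virus, with a median log2 fold change of -0.45, and that median was 0.03 when Con+Con mice 2 and 4 were left out. By edgeR 0 of the 32 were called, 19 had an unadjusted p under 0.05, and DESeq2 called 1, Scn4b. In bulk samples, fewer cells of a type and less RNA per cell cannot be told apart.

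Other cells were represented unevenly. Markers of cortical excitatory neurons, which do not belong to the striatum, summed to 3819 to 7059 CPM over 27 genes in Con+Con and 3465 to 5719 CPM in Con+Foxp2 with a spread inside both groups. With a cortical marker score as a covariate all 31 calls described here held. Ependymal and choroid plexus markers summed to 287 to 7867 CPM in Con+Con and 268 to 3199 CPM in Con+Foxp2. Ttr, the transthyretin of choroid plexus, was at 7119 CPM in Con+Con mouse 1 and 188 CPM in Con+Con mouse 2, so 2 mice of a group could lie far apart (the gene was chosen after its values were seen). Microglia and myeloid markers did not overlap between the groups in their summed level, at 445 to 497 CPM in Con+Con and 541 to 593 CPM in Con+Foxp2, over 25 genes of which none was at 0 in all 8 mice. Reactive astrocyte genes did not overlap either, at 463 to 603 and 609 to 850 CPM over 25 genes, but this rested on Gfap. Without Gfap the other 24 summed to 243 to 324 and 274 to 324 CPM, which overlap. Of the 16 tested members 10 were higher, and Gfap was the one whose groups did not overlap (list median log2 fold change 0.06).

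**Figure D1:**
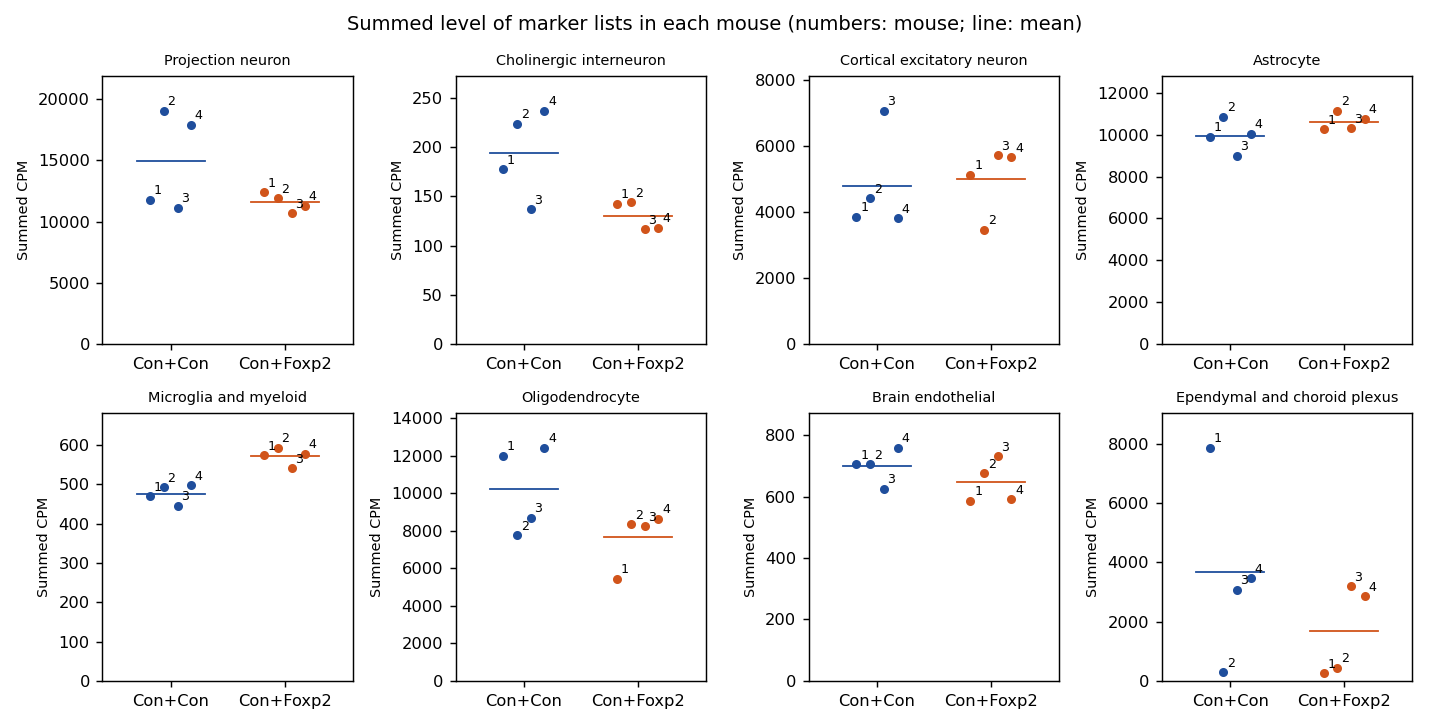
Summed CPM of 8 marker lists in each control-genotype mouse, with the mouse number beside each point and a line at the group mean; every vertical axis starts at 0. Con+Con mice 2 and 4 stand above all other mice in the projection neuron panel, at 19044 and 17900 CPM, and the groups do not overlap in the microglia panel.

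Foxp2 was examined first, to test the virus labels. Foxp2 was at 98.5, 149.6, 93.2 and 130.2 CPM in Con+Con mice 1 to 4 and 3819, 4389, 4350 and 3500 CPM in Con+Foxp2 mice 1 to 4. The groups lay more than an order of magnitude apart and every mouse matched its label. Foxp2 rose from 118 ± 26.7 CPM (SD, n = 4) to 4015 ± 431 CPM, 34.1-fold (log2 fold change 5.09, SE 0.19, edgeR adjusted p = 1.04e-14, from the quasi-likelihood test, adjusted over 13563 genes by Benjamini-Hochberg). The call held without each of the 8 libraries in turn. The reads do not show whether they come from the delivered or the resident gene, and strand use is not given.

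The FOXP relatives were not called. Foxp1 was at 383, 588, 379 and 537 CPM in Con+Con mice 1 to 4 and 427, 426, 382 and 416 CPM in Con+Foxp2 mice 1 to 4. The 4 Foxp2-virus mice lay inside the range of the 4 others. Its means were 472 ± 107 CPM in Con+Con and 413 ± 20.9 CPM in Con+Foxp2 (log2 fold change -0.19, SE 0.15, edgeR adjusted p = 0.871). Foxp4 was at 44.2 ± 14.1 and 47.4 ± 5.48 CPM (edgeR adjusted p = 0.973, log2 fold change 0.10, SE 0.22). Of 46 forkhead genes listed, 19 had enough reads to be tested, and the called ones were Foxp2 and Foxf1. The median log2 fold change of the 19 was -0.03, against -0.0037 over all genes tested. Foxo1, a factor under insulin control with the lowest p of those not called, was at 98.6 ± 21.6 and 78.2 ± 11.1 CPM (edgeR adjusted p = 0.797).

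With the Foxp2 virus 31 genes passed the threshold, 19 of them upward and 12 downward. That is 0.14% and 0.0885% of the genes tested, 0.229% in either direction. An unadjusted p under 0.05 was reached by 955 genes, 7.04%. In each of the 31 called genes the 4 + 4 mice did not overlap, which held for 679 of all genes tested, 5.01% (368 higher, 2.71%, and 311 lower, 2.29%). The risen genes comprised a small set that was near silent under the control virus (5 genes with a Con+Con mean under 5 CPM), Foxp2 itself, and 13 expressed genes that rose 1.59- to 12.1-fold. The fallen genes were all expressed, with a median Con+Con mean of 222 CPM, and fell 1.66- to 2.62-fold. A gene near 0 under the control virus has no room to fall, so this contrast with the rises was set in advance.

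**Figure D2:**
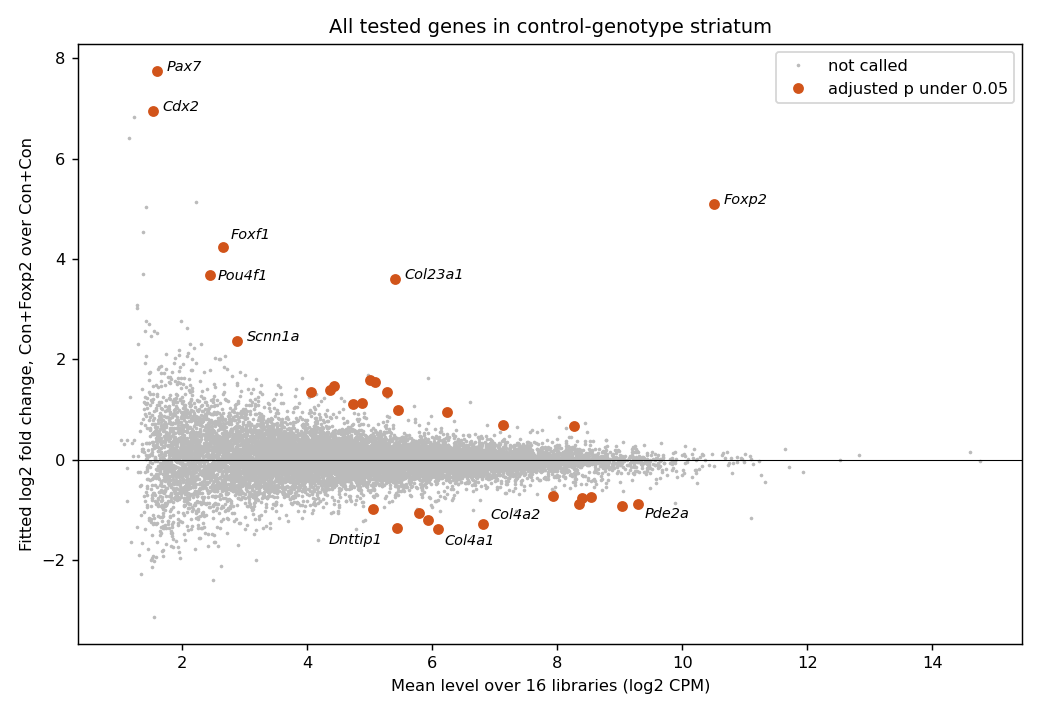
Fitted log2 fold change of each of 13563 tested genes (vertical axis) against its mean level over 16 libraries in log2 CPM (horizontal axis); orange points are the 31 called genes. Called falls lie to the right of the lowest levels, with log2 fold changes of -1.39 to -0.73, and the largest called rises besides Foxp2 lie at the low end.

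**Figure D3:**
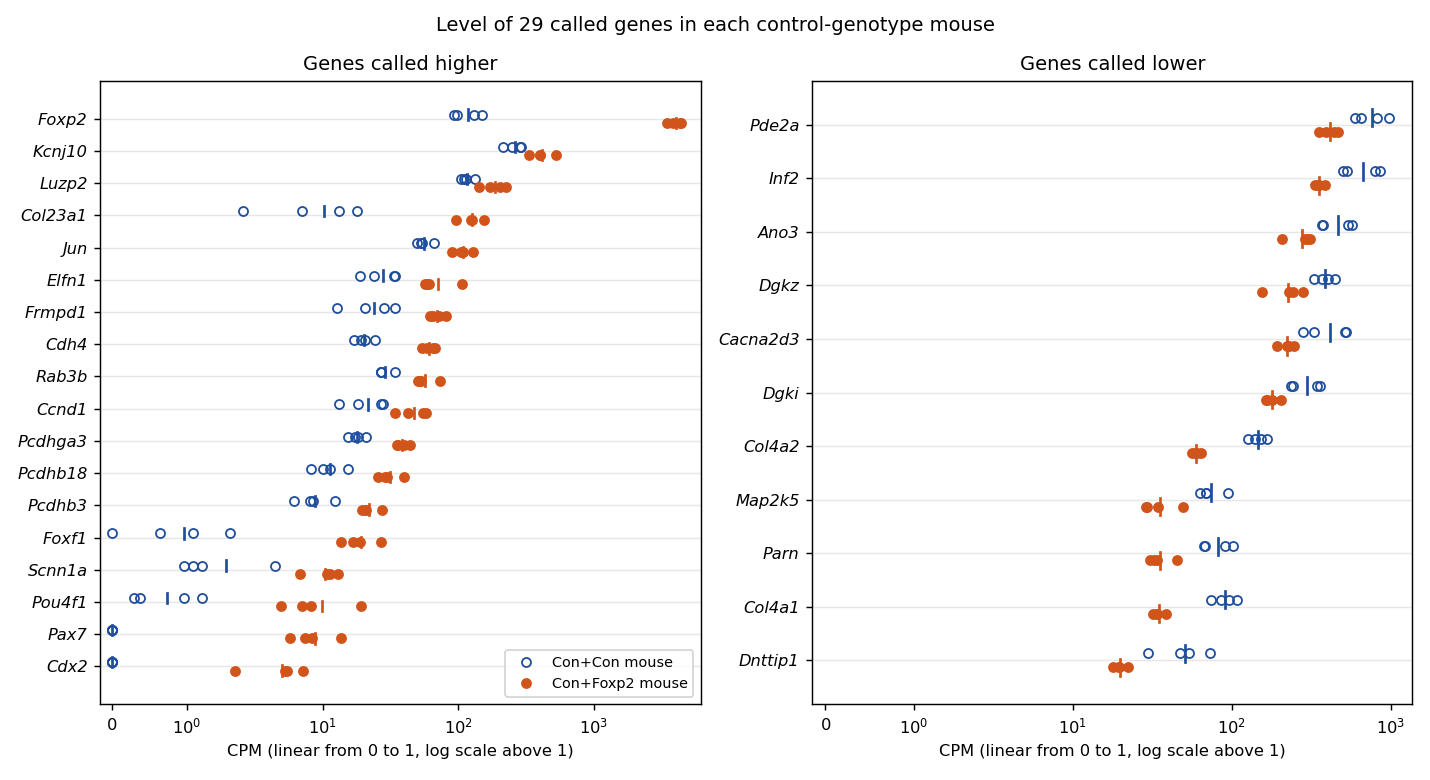
CPM of 29 of the 31 called genes in each control-genotype mouse (open blue Con+Con, filled orange Con+Foxp2, short lines at group means) on an axis that is linear from 0 to 1 and logarithmic above. The groups do not overlap in any of the 29 genes, and Pax7 and Cdx2 are at 0 in all 4 Con+Con mice.

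Transcription factors of other tissues made up most of the near-silent set. Cdx2, a caudal homeobox factor that sets intestinal identity, had 0 reads in all 4 Con+Con mice and 7, 22, 16 and 20 reads in Con+Foxp2 mice 1 to 4. Pax7, a paired-box factor of muscle satellite cells and midbrain, also had 0 reads in each Con+Con mouse and 23, 42, 25 and 21 in the Foxp2-virus mice. Every Foxp2-virus mouse had reads for both, and against a floor of 3 reads over the Con+Con group the rises were at least 20.7-fold for Cdx2 and at least 35.4-fold for Pax7 (edgeR adjusted p = 0.0178 and 0.0139). Foxf1, a forkhead factor of lung and gut mesenchyme, had 7, 2, 0 and 3 reads in Con+Con mice 1 to 4 and 84, 51, 57 and 50 in Con+Foxp2 mice 1 to 4. All 4 Foxp2-virus mice were far above the highest Con+Con mouse. Foxf1 rose from 0.956 ± 0.869 CPM to 19.1 ± 5.74 CPM, 18.9-fold (log2 fold change 4.24, SE 0.70, edgeR adjusted p = 0.00602). Foxf1 overlaps the predicted gene Gm20388 on chromosome 8, so reads that fall on both may be missing from its count. Other called genes, among them Pde2a, Pcdhb18, Ccnd1 and Cacna2d3, overlap coding genes too. The call of Cdx2 was lost without Con+Con mouse 1, 2 or 4 or Con+Foxp2 mouse 2 or 3 (edgeR adjusted p = 0.057 to 0.094). Leaving out Con+Con mouse 2 or 4 or Con+Foxp2 mouse 2 or 3 ended the call of Pax7 (edgeR adjusted p = 0.0517 to 0.0749). The call of Foxf1 held without each of the 8 libraries, with a highest adjusted p of 0.0431.

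Pou4f1, a POU homeodomain factor of sensory and habenular neurons, had 1, 3, 4 and 1 reads in Con+Con mice 1 to 4 and 22, 59, 15 and 30 in Con+Foxp2 mice 1 to 4. Con+Foxp2 mouse 2 was the highest and mouse 3 the lowest of the 4, and all lay above the Con+Con mice. Pou4f1 rose from 0.73 ± 0.477 CPM to 9.89 ± 6.42 CPM, 12.8-fold (log2 fold change 3.68, SE 0.71, edgeR adjusted p = 0.0263). Pou4f1 lost its call without Con+Con mouse 1, 2 or 4 or Con+Foxp2 mouse 2 (edgeR adjusted p = 0.0948 to 0.133). Scnn1a, which encodes the alpha subunit of the epithelial sodium channel, was the gene of the set that is no transcription factor, with 15, 3, 4 and 3 reads against 35, 33, 39 and 25. Con+Con mouse 1 stood out from its group and still lay below the lowest Foxp2-virus mouse. Scnn1a rose from 1.95 ± 1.66 CPM to 10.5 ± 2.59 CPM, 5.17-fold (log2 fold change 2.37, SE 0.49, edgeR adjusted p = 0.0356). Scnn1a was not called without Con+Con mouse 2, 3 or 4 or Con+Foxp2 mouse 1, 2 or 3 (edgeR adjusted p = 0.0726 to 0.172). Of 189 homeobox, paired-box and other developmental factors listed, 54 had enough reads to be tested. Cdx2, Pax7 and Pou4f1 were the called ones, while 0.14% of all genes tested were called higher. Such genes could pass the filter on low counts through the group in which they had reads, so their count is no result about the list. The groups did not overlap for 3 upward (5.56%) and 1 downward (1.85%), against 2.71% and 2.29% of all genes tested. The median log2 fold change of the 54 was -0.0019.

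The start regions of these genes are shown because forkhead factors bind short AT-rich words, while promoters of silent developmental factors are often rich in CG pairs. The printed bases come from RefSeq promoter windows on GRCm38.p6 and stop where the annotated gene begins. Cdx2 (chr5:147307271-147307499, minus strand, 229 bases) is printed with the reverse complement of the forkhead word TGTTTAC in capitals, and Pou4f1 (chr14:104468000-104468249, minus strand, 250 bases) with its CG pairs in capitals.
Cdx2: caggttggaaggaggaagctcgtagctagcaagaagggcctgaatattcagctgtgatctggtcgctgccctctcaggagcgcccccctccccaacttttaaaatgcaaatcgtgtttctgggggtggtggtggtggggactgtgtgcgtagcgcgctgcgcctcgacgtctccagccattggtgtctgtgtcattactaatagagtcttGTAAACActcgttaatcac
Pou4f1: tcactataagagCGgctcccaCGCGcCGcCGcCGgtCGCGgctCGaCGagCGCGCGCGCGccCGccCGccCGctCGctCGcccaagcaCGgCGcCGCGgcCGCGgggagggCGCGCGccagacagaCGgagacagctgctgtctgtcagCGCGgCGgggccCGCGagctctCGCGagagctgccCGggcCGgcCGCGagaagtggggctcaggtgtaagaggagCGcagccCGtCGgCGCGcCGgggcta
The Pou4f1 stretch held 47 CG pairs and 78% G or C. The Cdx2 stretch held 11 CG pairs.

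Windows of 300 bases (250 before and 50 after the start site) were searched on both strands for 7-base words that forkhead and FOXP factors are known to bind. These were the word TGTTTAC, the word TATTTAT and the word TATTTGT, of which the last pair share their first 5 letters. RefSeq windows were found for 21 of the 31 called genes, 28 windows in all. Of these, 1 held a word, that of Cdx2, with its first base 40 bases before the start site. Over the tested genes, 6.78% of 13189 windows held at least 1 of the words. The median G and C content was 62% in windows of called genes and 61% over tested genes. The median number of CG pairs was 18 and 20 in that order. The Pou4f1 window held 57 CG pairs, while those of Cdx2 and Pax7 held 18 and 17, below the median of tested genes. The median gene span was 57.9 kb for the risen and 122 kb for the fallen genes, against 26.5 kb for the tested genes with a position.

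Col23a1, Cdh4 and 3 clustered protocadherins, all of the cell surface or matrix, were among the rises. Col23a1 was at 7.08, 13.2, 18 and 2.6 CPM in Con+Con mice 1 to 4 and 127, 124, 155 and 96.6 CPM in Con+Foxp2 mice 1 to 4. The levels under the control virus ranged several-fold, and none came near the Foxp2-virus mice. Col23a1 rose from 10.2 ± 6.76 CPM to 126 ± 24 CPM, 12.1-fold (log2 fold change 3.60, SE 0.31, edgeR adjusted p = 4.17e-07). Col23a1 (chromosome 11, 51289920 to 51583918) encodes a collagen with a membrane-spanning end that can be shed from the cell. It held its call without each of the 8 libraries and under every alternative tried. Cdh4, or R-cadherin, joins cells through like-to-like binding. Cdh4 was at 17.1, 24.5, 19.3 and 20.5 CPM in Con+Con mice 1 to 4 and 67.3, 64.8, 59.3 and 53.8 CPM in Con+Foxp2 mice 1 to 4. The Con+Con mice lay close together, well below the others. Cdh4 rose from 20.3 ± 3.08 CPM to 61.3 ± 6.01 CPM, 3.01-fold (log2 fold change 1.59, SE 0.24, edgeR adjusted p = 0.00181). Of 39 tested cadherins and protocadherins outside the clusters, Cdh4 was the one called by edgeR. Cdh22, a related cadherin, was at 27.2 ± 4.79 and 45.6 ± 7.1 CPM with no overlap of the groups (edgeR adjusted p = 0.126; DESeq2 called it, with an adjusted p of 0.0455), and the neuronal cadherin Cdh2 at 126 ± 21.5 and 164 ± 13.9 CPM (edgeR adjusted p = 0.527).

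Clustered protocadherins are surface proteins that neurons choose in varied sets from a row of similar genes, and that serve self-recognition of their branches. Pcdhb18 was at 8.26, 15.4, 11.3 and 10 CPM in Con+Con mice 1 to 4 and 25.8, 30.1, 40.1 and 28.9 CPM in Con+Foxp2 mice 1 to 4. Pcdhb3 was at 8.56, 6.11, 8.04 and 12.3 CPM in Con+Con mice 1 to 4 and 20.9, 20.6, 27.5 and 19.4 CPM in Con+Foxp2 mice 1 to 4. Pcdhga3 was at 17.4, 15.4, 20.9 and 18.2 CPM in Con+Con mice 1 to 4 and 35.7, 43.8, 40.1 and 35.2 CPM in Con+Foxp2 mice 1 to 4. Each of the 3 genes separated the groups, with Con+Foxp2 mouse 3 the highest for both beta genes and mouse 2 for Pcdhga3. They rose 2.77, 2.53 and 2.15-fold in that order (edgeR adjusted p = 0.0263, 0.0265 and 0.0187). The call of Pcdhb18 was lost without Con+Con mouse 1 or 4 or Con+Foxp2 mouse 2 or 3 (edgeR adjusted p = 0.0749 to 0.122). Leaving out Con+Con mouse 1, 2 or 3 or Con+Foxp2 mouse 1, 2 or 3 ended the call of Pcdhb3 (edgeR adjusted p = 0.0542 to 0.157). Pcdhga3 lost its call without Con+Con mouse 1, 2 or 4 or Con+Foxp2 mouse 2 or 3 (edgeR adjusted p = 0.0575 to 0.107).

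Of the beta cluster all 22 genes were tested, and all 22 had a log2 fold change above 0 (0.01 to 2.00, median 0.68). Of these edgeR called 2 and DESeq2 5, and 8 did not overlap between the groups, 36.4% against 2.71% over all genes tested. Their summed level was 224 to 260 CPM in Con+Con and 361 to 475 CPM in Con+Foxp2. Pcdhb20, with the lowest p of those not called, was at 14 ± 1.92 CPM in Con+Con and 28.2 ± 4.28 CPM in Con+Foxp2 (edgeR adjusted p = 0.0797). In the alpha and gamma clusters 33 of 36 genes were tested, 30 had a log2 fold change above 0, 8 did not overlap (24.2%), and the median was 0.44. Pcdha3, a gene just outside the threshold, was at 2.19 ± 1.27 CPM in Con+Con and 12.1 ± 2.92 CPM in Con+Foxp2 (edgeR adjusted p = 0.0524; DESeq2 adjusted p = 0.00197), and Pcdha1 at 1.17 ± 1.23 CPM in Con+Con and 7.37 ± 1.86 CPM in Con+Foxp2 (edgeR adjusted p = 0.323). Reads that match more than 1 place were left out of the deposited counts and the gamma genes share exons, which leaves the level of a single member uncertain. The medians stayed above 0 under every alternative tried, at 0.57 to 0.76 for the beta cluster and 0.37 to 0.52 for the others.

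Collagen IV moved the other way. Its alpha1 and alpha2 chains, encoded by Col4a1 and Col4a2, wind together into the network of basement membranes, in the brain mostly around vessels. Col4a1 was at 96.5, 108, 85.8 and 73.7 CPM in Con+Con mice 1 to 4 and 33.8, 32.1, 34.1 and 38.8 CPM in Con+Foxp2 mice 1 to 4. Col4a2 was at 139, 167, 126 and 154 CPM in Con+Con mice 1 to 4 and 60.5, 56.6, 59 and 63.9 CPM in Con+Foxp2 mice 1 to 4. In both genes the Con+Foxp2 mice lay within a few CPM of each other and far under the lowest Con+Con mouse. Col4a1 fell from 91 ± 14.7 CPM to 34.7 ± 2.86 CPM, 2.62-fold (log2 fold change -1.39, SE 0.22, edgeR adjusted p = 0.00411). Col4a2 fell from 147 ± 17.6 CPM to 60 ± 3.05 CPM, 2.44-fold (log2 fold change -1.29, SE 0.14, edgeR adjusted p = 3.15e-05). Both calls held without each of the 8 libraries in turn. Without Con+Con mice 2 and 4 together, the adjusted p was 0.00488 for Col4a2 and 0.0569 for Col4a1, whose log2 fold change was then -1.40.

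The genes lie head to head on chromosome 8 and their annotated 5′ ends overlap by 22 bases, at chr8:11312805-11312826 (plus strand of GRCm38.p6). These bases are shown because reads in them cannot be told apart where strand is unknown.
Col4a1 and Col4a2 overlap: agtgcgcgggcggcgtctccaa
Of 39 tested collagens, Col4a1 and Col4a2 were called lower and Col23a1 higher. Over all genes tested 0.0885% were called lower and 0.14% higher. DESeq2 also called Col6a1, named for that call. Of the 39, 18 were higher and 21 lower, and the median log2 fold change was -0.07. The groups did not overlap for 4 upward (10.3%) and 3 downward (7.69%), against 2.71% and 2.29% of all genes tested. Of 32 laminins and other basement membrane proteins, 0 were called by edgeR (2 at an unadjusted p under 0.05, 0 by DESeq2), 0 separated the groups, and the median was -0.19. Lamb1, a laminin chain, was at 60.8 ± 13.5 CPM in Con+Con and 43.4 ± 4.2 CPM in Con+Foxp2 (edgeR adjusted p = 0.623). Brain endothelial markers summed to 626 to 760 CPM in Con+Con and 587 to 731 CPM in Con+Foxp2 over 24 genes, with 0 called by edgeR (2 at an unadjusted p under 0.05, 0 by DESeq2) and a median of -0.13. Mural cell and vascular fibroblast markers summed to 511 to 1037 and 416 to 769 CPM. Of 21 tested, 15 were lower, with a median of -0.23 (-0.46 without Con+Foxp2 mouse 3); 0 were called by edgeR (1 at an unadjusted p under 0.05, 0 by DESeq2). The groups did not overlap for 1 of them, Anpep, which was lower (named after its values were seen; edgeR adjusted p = 0.62). The endothelial and mural sums overlapped between the groups, while Col4a1 and Col4a2 did not. The part of vascular cell RNA in the fall of collagen IV was not tested.

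Frmpd1, Elfn1 and Rab3b, genes of scaffolds and synapses, rose as well. Frmpd1 was at 28.3, 12.9, 20.6 and 34.2 CPM in Con+Con mice 1 to 4 and 65.4, 72, 81.9 and 61.7 CPM in Con+Foxp2 mice 1 to 4. All 4 Foxp2-virus mice stood above the highest Con+Con mouse. Frmpd1 rose from 24 ± 9.29 CPM to 70.2 ± 8.85 CPM, 2.93-fold (log2 fold change 1.55, SE 0.23, edgeR adjusted p = 0.00181). Frmpd1 encodes a scaffold with FERM and PDZ domains and held its call without each of the 8 libraries; it overlaps the antisense gene Frmpd1os. Elfn1 was at 34.2, 19, 33.8 and 23.8 CPM in Con+Con mice 1 to 4 and 56.7, 106, 61 and 58.7 CPM in Con+Foxp2 mice 1 to 4. Con+Foxp2 mouse 2 was well above the other 3, which still cleared the Con+Con mice. Elfn1 rose from 27.7 ± 7.54 CPM to 70.7 ± 23.8 CPM, 2.54-fold (log2 fold change 1.35, SE 0.23, edgeR adjusted p = 0.00792). Elfn1 was not called without Con+Con mouse 2 or Con+Foxp2 mouse 2 (edgeR adjusted p = 0.0525 to 0.0588). Elfn1, a postsynaptic adhesion protein, recruits a presynaptic glutamate receptor and is best known from interneurons. Rab3b was at 27.1, 34.1, 27 and 26.8 CPM in Con+Con mice 1 to 4 and 52.8, 74, 51.4 and 50.2 CPM in Con+Foxp2 mice 1 to 4. Mouse 2 was the highest in both groups. Rab3b rose from 28.8 ± 3.57 CPM to 57.1 ± 11.3 CPM, 1.98-fold (log2 fold change 0.99, SE 0.18, edgeR adjusted p = 0.0139). The call of Rab3b was lost without Con+Con mouse 4 or Con+Foxp2 mouse 2 (edgeR adjusted p = 0.0664 to 0.0818). Rab3b is a small GTPase of synaptic vesicles. Of 54 tested genes of vesicle release Rab3b was the one called by edgeR. Syt2, a fast calcium sensor, separated the groups downward at 81.3 ± 31 CPM in Con+Con and 43.1 ± 5.64 CPM in Con+Foxp2 (edgeR adjusted p = 0.0935), and DESeq2 called it (adjusted p = 0.0133) and Sv2c (adjusted p = 0.0479) besides Rab3b. Of 61 tested synaptic adhesion genes Elfn1 was the called one.

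Kcnj10 encodes the inward rectifier through which astrocytes take up potassium. Kcnj10 was at 288, 251, 214 and 291 CPM in Con+Con mice 1 to 4 and 333, 529, 399 and 399 CPM in Con+Foxp2 mice 1 to 4. Mouse 1 was the lowest and mouse 2 the highest with the Foxp2 virus. Kcnj10 rose from 261 ± 36.2 CPM to 415 ± 82.2 CPM, 1.59-fold (log2 fold change 0.67, SE 0.13, edgeR adjusted p = 0.0251). Leaving out Con+Con mouse 2 or 3 or Con+Foxp2 mouse 2 or 3 ended the call of Kcnj10 (edgeR adjusted p = 0.0534 to 0.115). Of 24 astrocyte markers, 14 had a log2 fold change above 0 and 10 below. By edgeR Kcnj10 was the called one (DESeq2 called 3: Kcnj10, Gfap and Slc1a3), and 8 did not overlap, all higher, 33.3% against 2.71% of all genes tested. Beside Kcnj10 they were Aqp4, the water channel of astrocyte endfeet (119 and 187 CPM), Gfap, their intermediate filament (258 and 427 CPM), the glutamate transporter Slc1a3 (484 and 620 CPM), Aldh1l1 (41 and 56.2 CPM), Aldoc (363 and 409 CPM), Atp1b2 (318 and 410 CPM) and Acsbg1 (94.4 and 131 CPM), with edgeR adjusted p of 0.119 (Slc1a3) to 0.775 (Aldoc). Aqp4, Aldh1l1, Aldoc and Atp1b2 were named after their values were seen. The part of astrocyte RNA in the rise of Kcnj10 was not tested. The median log2 fold change of the 24 was 0.15, and their summed level overlapped, at 8997 to 10861 and 10258 to 11133 CPM. Of 72 tested potassium channel subunits, Kcnj10 was the called one and the median was -0.07.

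Jun, Ccnd1 and Luzp2 also rose. Jun was at 49.6, 53.7, 66.5 and 53.6 CPM in Con+Con mice 1 to 4 and 105, 109, 129 and 90.4 CPM in Con+Foxp2 mice 1 to 4. The highest Con+Con mouse stayed below the lowest Foxp2-virus mouse. Jun rose from 55.9 ± 7.38 CPM to 108 ± 15.9 CPM, 1.94-fold (log2 fold change 0.96, SE 0.20, edgeR adjusted p = 0.0366). Jun lost its call without Con+Con mouse 1, 2 or 4 or Con+Foxp2 mouse 1, 2 or 3 (edgeR adjusted p = 0.109 to 0.185). Jun is a subunit of AP-1, the factor induced by growth signals, activity and injury. Of 21 tested AP-1 and activity-induced genes it was the called one; its partner Fos was at 8.41 ± 3.36 CPM in Con+Con and 17.4 ± 6.44 CPM in Con+Foxp2 with overlap (edgeR adjusted p = 0.476). Ccnd1 was at 28, 18.3, 13.2 and 27.2 CPM in Con+Con mice 1 to 4 and 58, 42.9, 54.7 and 34.1 CPM in Con+Foxp2 mice 1 to 4. Con+Con mice 1 and 4 came closest to the lowest Foxp2-virus mouse, without overlap. Ccnd1 rose from 21.7 ± 7.16 CPM to 47.4 ± 11 CPM, 2.18-fold (log2 fold change 1.13, SE 0.23, edgeR adjusted p = 0.036). Ccnd1 was not called without Con+Con mouse 2, 3 or 4 or Con+Foxp2 mouse 1, 2 or 3 (edgeR adjusted p = 0.0563 to 0.199). Ccnd1, or cyclin D1, drives the entry into DNA synthesis. Luzp2 is a leucine zipper gene. Luzp2 was at 132, 114, 105 and 111 CPM in Con+Con mice 1 to 4 and 226, 203, 143 and 172 CPM in Con+Foxp2 mice 1 to 4. Con+Foxp2 mouse 3 was the closest to the Con+Con mice, of which mouse 1 was the highest. Luzp2 rose from 116 ± 11.8 CPM to 186 ± 36.5 CPM, 1.61-fold (log2 fold change 0.68, SE 0.14, edgeR adjusted p = 0.0355). The call of Luzp2 was lost without Con+Con mouse 2, 3 or 4 or Con+Foxp2 mouse 1, 2 or 4 (edgeR adjusted p = 0.0536 to 0.202).

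The 12 falls included enzymes of second messengers. Pde2a breaks down cyclic AMP and is stimulated by cyclic GMP. Pde2a was at 648, 980.0, 599.5 and 815 CPM in Con+Con mice 1 to 4 and 437, 392, 354 and 467 CPM in Con+Foxp2 mice 1 to 4. Con+Con mice 2 and 4, the pair with the most projection neuron RNA, were the highest. Pde2a fell from 761 ± 173 CPM to 413 ± 49.9 CPM, 1.84-fold (log2 fold change -0.88, SE 0.14, edgeR adjusted p = 0.00341). The call held without each of the 8 libraries, while without Con+Con mice 2 and 4 together the log2 fold change was -0.60 and the adjusted p 0.229. Of 19 tested phosphodiesterases Pde2a was the called one, and the median was -0.06. Pde1b, a calmodulin-dependent enzyme of striatal neurons, overlapped between the groups at 879.8 ± 274 CPM in Con+Con and 632 ± 61 CPM in Con+Foxp2 (edgeR adjusted p = 0.528).

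Diacylglycerol kinases turn diacylglycerol, the messenger that activates protein kinase C, into phosphatidic acid. Dgki was at 245, 362, 237 and 345 CPM in Con+Con mice 1 to 4 and 205, 167, 164 and 180.2 CPM in Con+Foxp2 mice 1 to 4. Dgkz was at 330.1, 401, 447 and 369 CPM in Con+Con mice 1 to 4 and 229.9, 155, 244 and 281 CPM in Con+Foxp2 mice 1 to 4. For Dgki the same pair of Con+Con mice was the highest, whereas for Dgkz it was Con+Con mouse 3. Dgki fell from 297 ± 65.5 CPM to 179 ± 18.7 CPM, 1.66-fold (log2 fold change -0.73, SE 0.13, edgeR adjusted p = 0.0141). Dgkz fell from 387 ± 49.7 CPM to 227 ± 52.6 CPM, 1.7-fold (log2 fold change -0.77, SE 0.16, edgeR adjusted p = 0.038). Leaving out Con+Con mouse 2 or 4 or Con+Foxp2 mouse 2 or 3 ended the call of Dgki (edgeR adjusted p = 0.071 to 0.0948). Dgkz lost its call without Con+Con mouse 2, 3 or 4 or Con+Foxp2 mouse 1, 2 or 3 (edgeR adjusted p = 0.0793 to 0.153). All 10 genes of the family were tested. Dgki and Dgkz were called lower, as were 0.0885% of all genes tested. Dgkd also separated the groups, at 110.2 ± 11.4 CPM in Con+Con and 85.8 ± 6.8 CPM in Con+Foxp2 (edgeR adjusted p = 0.675). With Dgkd, 3 of the 10 separated downward, 30% against 2.29% of all genes tested. The family median was -0.25 (-0.40 to -0.11 over the alternatives).

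Cacna2d3 and Ano3 also fell. Cacna2d3 is an auxiliary alpha2delta subunit of voltage-gated calcium channels. Cacna2d3 was at 331, 526, 280.3 and 519 CPM in Con+Con mice 1 to 4 and 223, 248, 192 and 231 CPM in Con+Foxp2 mice 1 to 4. Con+Con mice 2 and 4 stood well above mice 1 and 3, which were nearer to the Foxp2-virus mice. Cacna2d3 fell from 414 ± 127 CPM to 224 ± 23.8 CPM, 1.85-fold (log2 fold change -0.89, SE 0.17, edgeR adjusted p = 0.0226). Cacna2d3 was not called without Con+Con mouse 2 or 4 or Con+Foxp2 mouse 1, 2, 3 or 4 (edgeR adjusted p = 0.0588 to 0.133). Ano3 is a member of the anoctamin family whose human gene is mutated in a dystonia. Ano3 was at 374, 571, 369.7 and 539.8 CPM in Con+Con mice 1 to 4 and 288, 207, 313 and 301 CPM in Con+Foxp2 mice 1 to 4. The same pair was high. Ano3 fell from 464 ± 107 CPM to 277 ± 47.8 CPM, 1.67-fold (log2 fold change -0.74, SE 0.15, edgeR adjusted p = 0.0366). The call of Ano3 was lost without Con+Con mouse 2 or 4 or Con+Foxp2 mouse 1, 2, 3 or 4 (edgeR adjusted p = 0.0683 to 0.21). The gene Muc15 lies within Ano3 on the other strand. Of 22 tested calcium channel subunits Cacna2d3 was the one called by edgeR, while the T-type pore gene Cacna1g lay apart upward at 72.9 ± 31.4 CPM in Con+Con and 162 ± 13.7 CPM in Con+Foxp2 (edgeR adjusted p = 0.0982). Cacna1g was called by limma voom (adjusted p = 0.0211), by edgeR in the 8 control libraries alone (adjusted p = 0.0334) and by edgeR with no filter on low counts (adjusted p = 0.00155), and not by DESeq2 (adjusted p = 0.123). Of 10 sodium channel subunits 0 were called by edgeR (2 at an unadjusted p under 0.05, 1 by DESeq2), and Scn4b, abundant in projection neurons, separated the groups downward at 499 ± 161 CPM in Con+Con and 305 ± 54.1 CPM in Con+Foxp2 (edgeR adjusted p = 0.156).

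Inf2 is a formin that builds and severs actin filaments. Inf2 was at 504, 795, 532 and 853 CPM in Con+Con mice 1 to 4 and 385, 347, 337 and 352 CPM in Con+Foxp2 mice 1 to 4. Con+Con mice 2 and 4 were again the highest, and the 4 Foxp2-virus mice lay within 337 to 385 CPM. Inf2 fell from 671 ± 178 CPM to 355 ± 20.7 CPM, 1.89-fold (log2 fold change -0.92, SE 0.16, edgeR adjusted p = 0.0102). Leaving out Con+Con mouse 2 or 4 or Con+Foxp2 mouse 2 or 3 ended the call of Inf2 (edgeR adjusted p = 0.0517 to 0.0579). Map2k5 is the kinase that activates ERK5. Map2k5 was at 69, 94.9, 68.5 and 63.2 CPM in Con+Con mice 1 to 4 and 29, 34.4, 49.4 and 29.5 CPM in Con+Foxp2 mice 1 to 4. The groups did not overlap, and Con+Foxp2 mouse 3 was the closest to the Con+Con mice. Map2k5 fell from 73.9 ± 14.2 CPM to 35.6 ± 9.54 CPM, 2.08-fold (log2 fold change -1.06, SE 0.20, edgeR adjusted p = 0.0173). Map2k5 lost its call without Con+Con mouse 2 or Con+Foxp2 mouse 1, 2 or 4 (edgeR adjusted p = 0.0749 to 0.107). Of 32 tested genes of the MAP kinase cascades it was the called one, and the median was -0.04.

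Parn and Dnttip1 act on RNA and chromatin. Parn removes poly(A) tails and trims small noncoding RNAs. Parn was at 68.2, 102, 66.5 and 91.1 CPM in Con+Con mice 1 to 4 and 33.8, 32.4, 30.8 and 45 CPM in Con+Foxp2 mice 1 to 4. The highest were Con+Con mice 2 and 4, and mice 1 and 3 also lay above all Foxp2-virus mice. Parn fell from 82 ± 17.5 CPM to 35.5 ± 6.47 CPM, 2.3-fold (log2 fold change -1.20, SE 0.18, edgeR adjusted p = 0.00181). The call held without each of the 8 libraries, while without Con+Con mice 2 and 4 together the adjusted p was 0.215. Dnttip1 is a subunit of a class I histone deacetylase complex. Dnttip1 was at 47.5, 73.4, 29.6 and 53.9 CPM in Con+Con mice 1 to 4 and 22.2, 19.6, 17.9 and 19.7 CPM in Con+Foxp2 mice 1 to 4. The Foxp2-virus mice were nearly level, and the Con+Con mice spread from mouse 3 to mouse 2. Dnttip1 fell from 51.1 ± 18.1 CPM to 19.9 ± 1.78 CPM, 2.57-fold (log2 fold change -1.36, SE 0.24, edgeR adjusted p = 0.0125). Dnttip1 was not called without Con+Con mouse 2 or Con+Foxp2 mouse 2 or 3 (edgeR adjusted p = 0.057 to 0.0825). Of 30 tested deadenylases and poly(A) factors Parn was the called one (median -0.04), and of 40 tested genes of class I deacetylase complexes Dnttip1 was the called one (median -0.0099).

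Con+Con mice 2 and 4 were the top pair in 8 of the 12 fallen genes. Without both of them, all 12 stayed below 0, with log2 fold changes of -1.40 to -0.43, and 10 of the 12 were smaller in size. All 19 risen genes stayed above 0, at 0.64 to 7.75. The mice of the 2 groups did not overlap in any called gene, so leaving out mice could not change these signs. In the 8 genes with mice 2 and 4 on top, a smaller fall was set in advance as well. Without mice 2 and 4, 5 of the 31 calls remained, those of Foxp2, Col23a1, Frmpd1, Cdh4 and Col4a2, with 2 Con+Con mice left in the comparison. Calls were lost among the rises too, of which 4 of 19 remained, so the lost calls do not test cell content. The part of projection neuron RNA in the falls was not tested. Of the 31 calls 9 held without each of the 8 libraries in turn. Without Con+Foxp2 mouse 2, 9 of the 31 calls remained, without Con+Con mouse 2 it was 11, and without Con+Con mouse 4 or Con+Foxp2 mouse 3 it was 14.

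Of the 39 gene lists, 17 held a called gene. Beside the protocadherins and astrocyte markers, the lists with the highest shares of separated genes upward were antigen presentation (3 of 15, 20%), microglia and myeloid markers (4 of 24, 16.7%) and interferon-stimulated genes (4 of 27, 14.8%), against 2.71% of all genes tested. Of their members edgeR called 0 in each list, while 3, 3 and 4 in that order had an unadjusted p under 0.05, and DESeq2 called 1, B2m, which encodes beta-2 microglobulin. Lyz2, the lysozyme of myeloid cells, was at 2.66, 7.08, 5.79 and 4.09 CPM in Con+Con mice 1 to 4 and 15.8, 15.4, 13.3 and 15.3 CPM in Con+Foxp2 mice 1 to 4. The groups did not overlap (log2 fold change 1.6, SE 0.44, edgeR adjusted p = 0.193). H2-K1, an MHC class I heavy chain, was at 6.37 ± 3.38 CPM in Con+Con and 17.1 ± 3.91 CPM in Con+Foxp2 (edgeR adjusted p = 0.239), and Gbp7, an interferon-induced GTPase, at 12.3 ± 3.23 CPM in Con+Con and 23.7 ± 5.62 CPM in Con+Foxp2 (edgeR adjusted p = 0.518). The median log2 fold changes were 0.72, 0.32 and 0.44, and stayed above 0 under every alternative tried. Of the tested members 2, 5 and 7 in that order were lower. Of the microglia and myeloid markers 1 separated the groups downward (4.17%, against 2.29% of all genes tested). The summed level of the interferon-stimulated genes was 236 to 304 CPM in Con+Con and 347 to 378 CPM in Con+Foxp2, without overlap. That of the antigen presentation genes overlapped, at 1174 to 1373 and 1240 to 1356 CPM. The interferon and microglia sums were both higher with the Foxp2 virus. The part of microglia in the interferon genes was not tested.

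Downward, the cholinergic interneuron list had the highest share, 4 of 12 (33.3%, against 2.29% of all genes tested), with 0 called by edgeR, 5 at an unadjusted p under 0.05, and 1 by DESeq2. Slc17a8, a vesicular glutamate transporter of these cells, was at 10.6, 16.7, 13.5 and 11.9 CPM in Con+Con mice 1 to 4 and 3.86, 1.64, 1.99 and 5.46 CPM in Con+Foxp2 mice 1 to 4. The groups did not overlap (log2 fold change -2.0, SE 0.49, edgeR adjusted p = 0.115), and this was the gene DESeq2 called. The list median was -0.83, and -0.43 without Con+Con mice 2 and 4, the mice in which its summed level was also the highest. Next downward came diacylglycerol kinases (3 of 10, 30%) and voltage-gated sodium channel subunits (2 of 10, 20%). Oligodendrocyte markers had a median of -0.34 with 21 of 24 lower and 1 separated; edgeR called 0 (4 at an unadjusted p under 0.05, 0 by DESeq2). The list of reported FOXP2 targets had 0 of 30 called by edgeR (2 at an unadjusted p under 0.05, 0 by DESeq2), 0 separated and a median of -0.0075. Glutamate and GABA receptor subunits had 0 of 39 called by edgeR (4 at an unadjusted p under 0.05, 0 by DESeq2) and 0 separated. In each list with 0 calls by edgeR, limma voom called 0 as well.

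**Figure D4:**
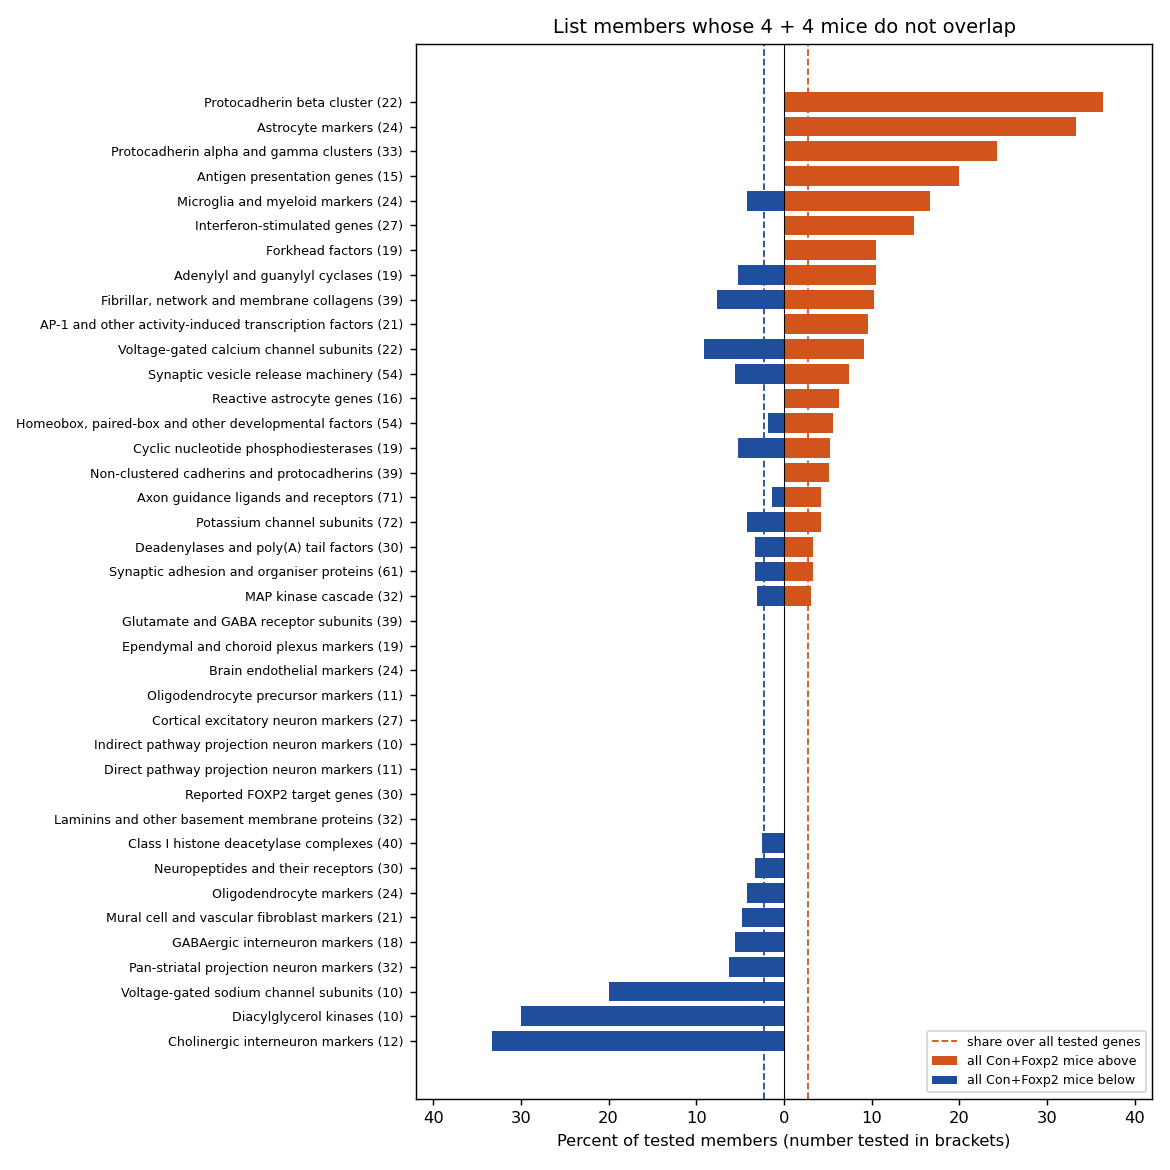
Percent of the tested members of each of 39 gene lists whose 4 + 4 mice do not overlap, to the right where all Con+Foxp2 mice were above and to the left where all were below; dashed lines mark 2.71% and 2.29%, the shares over all genes tested. Beta protocadherins (36.4%) and astrocyte markers (33.3%) reach farthest to the right and cholinergic interneuron markers (33.3%) farthest to the left.

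Just outside the threshold stood Pcdha3, Mcf2l, Gtf2i, Dio2 and Tpcn1. Mcf2l was at 287 ± 34.5 CPM in Con+Con and 190.1 ± 10.8 CPM in Con+Foxp2, Gtf2i, a general transcription factor, at 438 ± 62.3 CPM in Con+Con and 311 ± 16.6 CPM in Con+Foxp2, and Tpcn1, a channel of endosomes, at 88.4 ± 7.76 CPM in Con+Con and 54.6 ± 10.7 CPM in Con+Foxp2. Dio2, the deiodinase with which astrocytes activate thyroid hormone, was at 52.5 ± 9.5 CPM in Con+Con and 86.6 ± 3.65 CPM in Con+Foxp2. In all 5 genes the groups did not overlap, and the edgeR adjusted p was 0.0524 to 0.0615.

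The same genes were then read in BACHD mice, which share no library with the control-genotype comparison and were fitted in the same model. Foxp2 reached a lower level there with its virus, 1595 ± 288 CPM against 4015 ± 431 CPM, so the genotypes were compared at different Foxp2 levels. Of the 30 called genes besides Foxp2, 27 had the same direction in BACHD mice and 10 were called there, all in the same direction, while 0.243% of all genes tested were called. All 12 fallen genes were lower in BACHD mice, 7 were called (0.155% of all genes tested were called lower) and 10 did not overlap downward (2.36%). Over both directions 4.14% of all genes tested did not overlap. Of the 18 risen genes 15 were higher, 3 were called (0.0885% called higher) and 8 did not overlap upward (1.78%). The falls included Col4a2, Pde2a, Dnttip1, Dgki, Map2k5 and Cacna2d3, and the 3 rises were Rab3b, Jun and Pou4f1. Projection neuron markers were lower with the Foxp2 virus in BACHD mice too. Of 32 tested, 2 were higher, 0 were called, and the median log2 fold change was -0.25. The part of projection neuron RNA in the BACHD falls was not tested. Without the 3 libraries lowest in cortical markers, which are Con+Con mouse 4 and BACHD+Con mice 2 and 3, 4 of the 31 calls, Foxp2 included, were also made in BACHD mice.

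Some rises of control mice were near 0 in BACHD mice. Cdh4 was at 21.7 CPM in BACHD+Con and 22 CPM in BACHD+Foxp2 (log2 fold change 0.02, SE 0.24, edgeR adjusted p = 0.994), and its interaction had an unadjusted p of 0.000114 and an adjusted p of 0.386. Elfn1 was at 26.9 CPM in BACHD+Con and 26.8 CPM in BACHD+Foxp2 (log2 fold change -0.00079, SE 0.24, edgeR adjusted p = 1), and its interaction had an unadjusted p of 0.000458 and an adjusted p of 0.809. Frmpd1 was at 17.9 CPM in BACHD+Con and 20.6 CPM in BACHD+Foxp2 (log2 fold change 0.20, SE 0.24, edgeR adjusted p = 0.909), and its interaction had an unadjusted p of 0.00052 and an adjusted p of 0.809. Pax7, with reads in every Con+Foxp2 mouse, had 0 reads in all 4 BACHD+Foxp2 mice and 0, 0, 2 and 3 in BACHD+Con mice 1 to 4. Cdx2 by contrast had 11, 14, 7 and 9 reads in BACHD+Foxp2 mice 1 to 4 against 0, 3, 0 and 0 in BACHD+Con, and Pou4f1 16, 17, 15 and 51 against 0 in each. Changes were smaller in size in BACHD mice for 24 of the 30 genes, a count that the choice of genes by their control-mouse values helps to set. A test of the difference itself, the interaction of genotype and virus, called 0 of 13563 genes by edgeR (516 at an unadjusted p under 0.05, 3.8%; DESeq2 called 4). For the 30 genes the lowest adjusted interaction p was 0.362 (Col23a1 and Pax7), and 13 had an unadjusted p under 0.05, to which the same applies. For Foxp2 it was 0.077. By this test no difference between the genotypes was shown for the 31 genes.

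**Figure D5:**
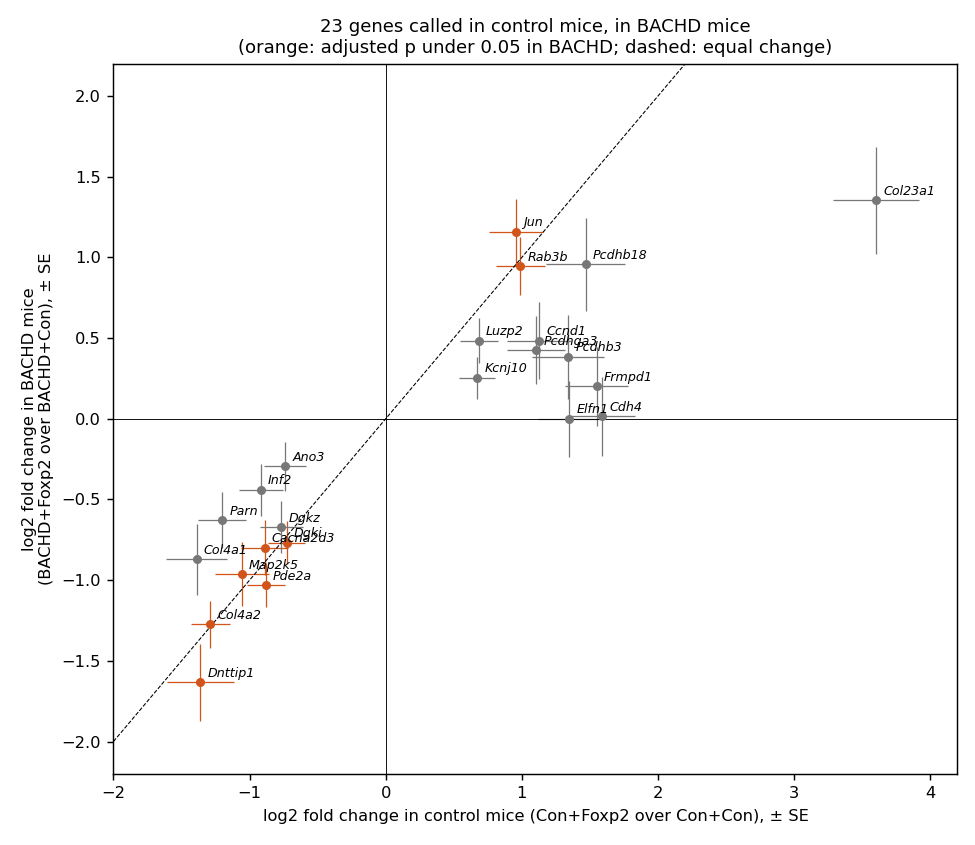
Log2 fold change ± SE in control-genotype mice (horizontal axis) and BACHD mice (vertical axis) for 23 called genes other than Foxp2 with a Con+Con mean of at least 5 CPM; orange marks an adjusted p under 0.05 in BACHD mice and the dashed line equal changes. The 11 falls shown lie below 0 on both axes, while Cdh4 (1.59 and 0.02) lies near 0 in BACHD mice.

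The authors' deposited table of the same comparison lists 111 genes with an adjusted p under 0.05, 57 higher and 54 lower. All 31 genes called here are among them, each in the same direction in the authors' deposited table. The log2 fold changes in the authors' deposited table are smaller in size for all 31, for example 4.51 for Foxp2, 1.21 for Col23a1 and 1.11 for Pax7. They come from DESeq2 and those here from edgeR. Over the alternatives tried here, DESeq2 among them, the lowest values were 4.995 for Foxp2, 3.30 for Col23a1 and 5.68 for Pax7. These lie above the authors' values. Not every gene was like this, as Parn came as near to 0 as -0.92 here against -0.96 in the authors' deposited table. The cause of the smaller sizes was not tested, and they do not by themselves show weaker effects.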

How the data were processed

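RNA of the striatum was extracted with a lipid tissue kit, amplified with a SMARTer kit and sequenced on a HiSeq instrument, per the labels' protocols. Reads were aligned to mm10 with STAR 2.4.0 and counted with HTSeq, and DESeq2 was used, per the submitters' processing notes; no strand setting is stated there. The deposited files hold raw counts per gene, with 5 summary lines left out here (22.5% to 24.3% of listed reads were assigned to genes in the 8 control-genotype libraries). The authors' deposited comparison table gives log2 fold changes and p-values, which were read but not refitted.

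Genes with enough counts (filterByExpr) were scaled by TMM factors and tested in 1 fit of all 16 libraries (12 residual degrees of freedom). The test was the quasi-likelihood F test (edgeR 4.0.16, R 4.3.3) with Benjamini-Hochberg adjustment over 13563 genes and a threshold of 0.05. The comparison was Con+Foxp2 minus Con+Con. DESeq2 1.42.0 and limma 3.58.1 were alternatives, as were other scalings, filters, a replicate block and fits without single libraries. Depth was 2728388 to 3669748 gene reads, and a floor covers counting error only. No pair of libraries was alike within counting noise. Replicates are separate mice. On simulated counts with the same depths, 20.9% of 67 genes changed 1.5-fold, 53.73% of 67 changed 2-fold and 95.45% of 66 changed 4-fold were called. The fit held 13346 genes and made 5 false calls. The changed genes were drawn from those above a minimum mean level, so these shares do not cover genes with few reads. Each gene was also drawn independently of the others. The shares and false calls thus do not cover shifts of many genes together in 1 mouse, such as those of the projection neuron markers.

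Named were every called gene, Foxp1 and Foxp4, up to 3 tested genes of lowest p in each of 39 lists, and the 5 genes just outside the threshold; predicted genes were counted only. The results of some named genes are not reported here, though the counts include them. The members and lists were chosen with earlier results of these data known. Gene positions come from GENCODE M21 and sequences from RefSeq, on GRCm38.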

Additional observations from a re-analysis of the deposited data

Results flagged for a closer look

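In 62 groups of 4 mice, those of the 31 called genes, 4 held a mouse far from the other 3 by Dixon's ratio; about 5% of groups, or 3.1 of 62, pass that limit by chance. Elfn1 was at 106 CPM in Con+Foxp2 mouse 2 and at 56.7 to 61 CPM in the other 3 mice of that group. Rab3b was at 74 CPM in Con+Foxp2 mouse 2 (50.2 to 52.8 CPM in the others) and at 34.1 CPM in Con+Con mouse 2 (26.8 to 27.1 CPM in the others). Scnn1a was at 4.43 CPM in Con+Con mouse 1 and at 0.965 to 1.29 CPM in the other 3. Elfn1 and Rab3b lost their calls without Con+Foxp2 mouse 2, while Scnn1a kept its call without Con+Con mouse 1.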

How the results depend on the processing

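Against 31 calls (19 higher, 12 lower), DESeq2 called 87 (45 and 42), a fit with no low-count filter 75 (39 and 36) and a cortical marker covariate 59 (33 and 26). Each of these included all 31. Leaving out the 2 Con+Con mice highest in projection neuron markers left 5 (4 and 1), and leaving out the 3 libraries lowest in cortical markers 21 (7 lower). The covariate and the 2-mouse alternative were chosen after seeing the data. Without single libraries the calls ranged from 10 to 46, the rises from 5 to 20 and the falls from 4 to 26. The lowest total came without Con+Foxp2 mouse 2, and 12, 14 and 14 came without Con+Con mouse 2, Con+Con mouse 4 and Con+Foxp2 mouse 3; the 46 came without Con+Con mouse 3. The cause of these moves was not tested. The interaction had 0 calls, against 4 by DESeq2, 3 with no filter, 2 with the covariate, 1 without the 2 Con+Con mice, and 0 to 1 without single libraries. The 8 control libraries alone, other scalings, limma voom and a stricter filter gave 31 to 35 calls. Of the 31, the 8 control libraries alone kept 24: Kcnj10, Pcdhb3, Luzp2, Scnn1a, Ccnd1 and Ano3 had an edgeR adjusted p of 0.0604 to 0.0841, and Cdx2 was not tested there. With limma voom 29 remained, without Pou4f1 (adjusted p = 0.194) and Scnn1a (adjusted p = 0.105). The other scalings and the stricter filter kept all 31.

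A replicate block gave 21 calls with 12 higher, all among the 31. Same-numbered Con+Con and Con+Foxp2 mice did not deviate together over the tested genes (r of -0.064 to 0.101, none its own best match). These deviations also hold differences in cell content between mice, so they cannot exclude a pairing by number. The labels do not say what the numbers mark.

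Uncalled genes that changed sign were Foxp1 (0.11 on the log2 scale), Drd1 (0.070) and Adora2a (0.078) without the 2 Con+Con mice, and Foxp4 at -0.090 without Con+Con mouse 4 (0.27 the highest without a single library) and -0.084 without the 3 libraries lowest in cortical markers. Depth limits low genes, since 3 reads equal 0.819 to 1.12 CPM.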
